A study of Oryza sativa with 6 samples.

Results

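Genes of secondary metabolism and terpenoid synthesis in rice leaves are described here, compared between the *Dap1* mutant and its wild type (WT). The members are the listed genes in 2 KEGG classes, biosynthesis of other secondary metabolites and metabolism of terpenoids and polyketides, together with the terpene synthase gene *OsTPS10* (*Os03g0348200*), which has no KEGG class in the table. KEGG is a database that places enzymes on pathway maps. Of 33 listed genes in the 2 classes, *OsGA2ox6* was left out by name and *OsTPS24* (*Os04g0345400*) because no *Dap1* library had more than 3 counts for it, so that 32 of the 925 listed genes were members. *SD1* (*Os01g0883800*), also left out by name, has no class in the table and would not have entered. On the edge of this count limit, *OsTPS24* had 10, 13 and 6 counts in WT against 3, 1 and 0 in *Dap1*. Just inside it, *Os9bglu30* (*Os09g0491100*) had 17, 8 and 19 counts in WT against 1, 1 and 6 in *Dap1*.

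WT was the *japonica* variety ZH11, and *Dap1* is a line of that variety with a T-DNA inserted upstream of *OsWUS*, the gene for a homeobox transcription factor of meristems. The mutant is a single insertion line. In the study's genotyping, plants with the mutant phenotype were heterozygous for the T-DNA, and no homozygous plants were found. The zygosity of the plants used for RNA-seq is not stated apart from this. All plants were grown in the field. Fresh leaves were taken at the booting stage, with 3 biological replicates in each group and 1 RNA-seq library per replicate. The expression values are fragment counts per gene and FPKM, the count divided by transcript length and by the mapped fragments of the library, so that levels are compared between genes in FPKM only.

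The table lists only genes that the study had called different in these libraries. Every member was therefore chosen on the same comparison, and the values below are a description with no test. The libraries held 244181 to 314019 counts on the listed genes in WT and 601642 to 666483 in *Dap1*, and their relative sizes, taken from the ratio of count to FPKM, were 0.862 to 1.11. Because whole leaves were used, fewer cells of a type and less RNA per cell cannot be told apart. The day of sampling, the age of the plants and the weather cannot be told apart from the genotype either. The study reports slower growth and later heading in *Dap1*. The heat response GO term was carried by 27 listed genes, 26 of them higher in *Dap1* (median log2 fold change 4.49) and 0 of them members, and the part of this in the values of the members was not tested. Words for photosystem and chlorophyll-binding proteins matched 4 listed genes, of which 3 were higher and 1, the flowering gene *GHD7*, was lower, so the table holds too few leaf genes to check the tissue.

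Phenylpropanoids are made from phenylalanine through cinnamic acid, and they supply lignin for cell walls and the precursors of flavonoids. Terpenoids are built from five-carbon units. They include the gibberellins and the carotenoids, from which abscisic acid (ABA) is cut, as well as defence compounds and leaf volatiles. In grasses these routes are known for wall strength, defence and the control of growth through hormones.

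Among the 32 members, 17 were higher and 15 lower in *Dap1*, all past an adjusted p-value of 0.05 in edgeR's quasi-likelihood test and an absolute log2 fold change of 1. Over all listed genes 98.6% passed the same limits, 56.9% higher and 41.7% lower, so nothing is read from these counts. In none of the 32 members did scaled counts (counts divided by relative library size) overlap between WT and *Dap1*, and the same held for 99.0% of the listed genes. The median absolute log2 fold change was 1.36 over the members and 1.54 over the listed genes. The median log2 fold change with its sign was 1.02 over the members and 1.15 over the listed genes. No member lay between -1 and 1. The signed median over the members thus follows from the limit and the split into 17 and 15, and it is no typical change. How many members were called in each direction changed with the scaling of the libraries. TMM factors computed over the listed genes gave 7 members called higher and 15 lower. Under the size factors of DESeq2 the calls were 4 higher and 15 lower. These factors lowered all listed genes by a median of 0.45 and 0.85 on the log2 scale. Both methods take most genes as unchanged, whereas here every gene was listed because it had been called different. A call that ends under these factors is therefore given as a value only, and it does not show that the rise is unstable. No member changed direction under either set of factors.

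**Figure D1:**
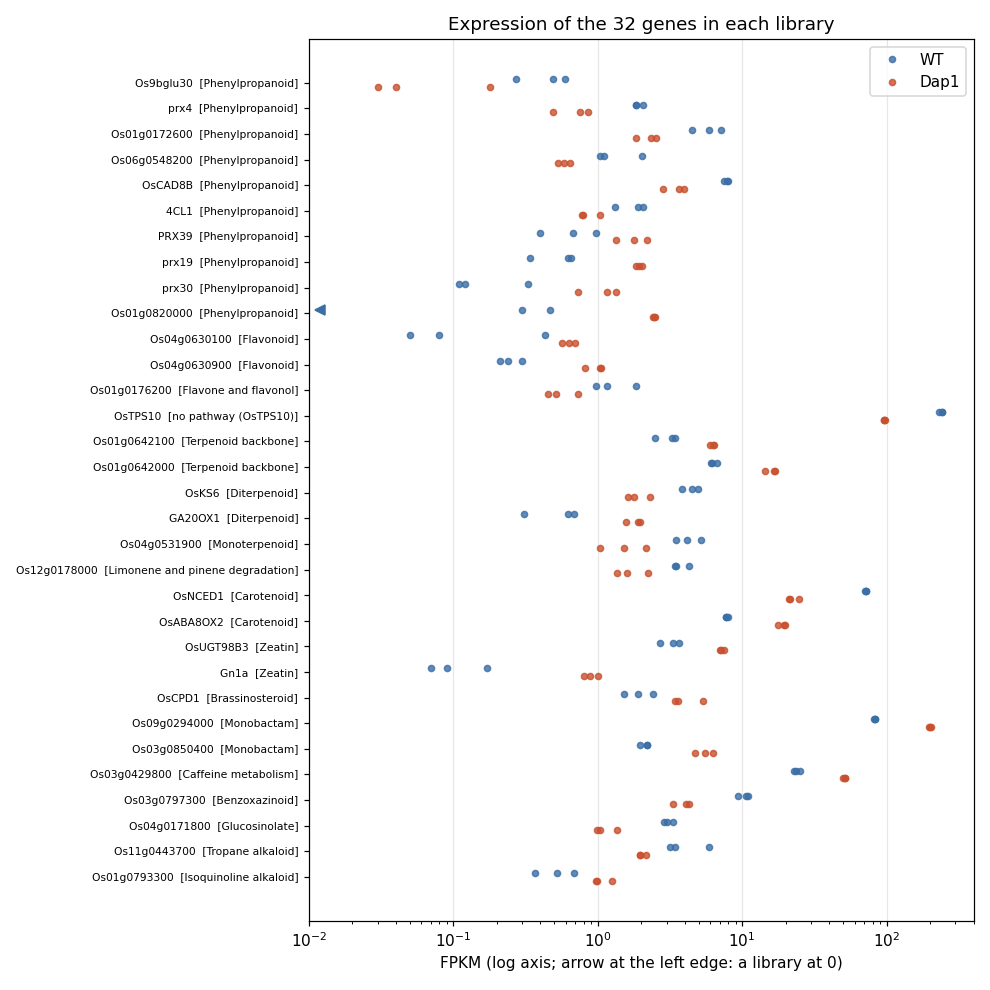
FPKM of each of the 32 genes (log axis) in the 3 WT libraries (blue) and the 3 *Dap1* libraries (red), with the KEGG pathway in brackets. For every gene the points of the groups stand apart, an arrow at the left edge marks the WT library of *Os01g0820000* at 0, and the levels run from *Os9bglu30*, at 0.03 to 0.59 FPKM, to *OsTPS10*, at 95.3 to 243.7 FPKM.

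By the first KEGG map of each gene the members lay on 16 maps, and only phenylpropanoid biosynthesis had more than 2 of them. On the maps of phenylpropanoid, flavonoid, flavone, terpenoid backbone, monoterpenoid, diterpenoid and carotenoid synthesis lay 21 genes, *OsTPS10* counted with them, 10 higher and 11 lower. The other 11, 7 higher and 4 lower, were on maps such as monobactam biosynthesis or caffeine metabolism, or on those of zeatin and brassinosteroid synthesis. The name phenylpropanoid, flavonoid and terpenoid biosynthesis thus fits part of the set. In the class of other secondary metabolites 10 of 20 genes were higher, and in that of terpenoids and polyketides 7 of 11.

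Phenylpropanoid biosynthesis held 10 members, 4 higher and 6 lower in *Dap1*. The listed genes of its main line did not move in 1 direction: a cinnamate 4-hydroxylase gene was higher, and a coumarate ligase gene and a cinnamyl alcohol dehydrogenase gene were lower. Any other genes for these steps are not seen, since only called genes are listed. Among the listed class III peroxidases, enzymes of the cell wall that can couple monolignols into lignin, 3 were higher and 2 lower.

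*Os01g0820000*, described as similar to cinnamate 4-hydroxylase, the cytochrome P450 enzyme that turns cinnamate into coumarate, had 15, 7 and 0 counts in WT against 68, 74 and 74 in *Dap1*. The *Dap1* libraries lay close together and far above WT, whereas 1 WT library had no count. Its FPKM was 0.257 ± 0.238 (SD, n = 3) in WT but 2.45 ± 0.0306 in *Dap1* (SD, n = 3). The log2 fold change of 3.25 (standard error 0.39) was the largest rise among the members. Without WT replicate 1 it was 4.19, and without WT replicate 3, the library at 0, it was 2.66. The gene is also placed on the flavonoid map and on the map of stilbenoids and gingerol.

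*4CL1* (*Os08g0245200*), the 4-coumarate:coenzyme A ligase that activates coumarate for the next steps, had 56, 63 and 80 counts in WT against 29, 31 and 42 in *Dap1*. Its log2 fold change was -1.0 (standard error 0.24), at the limit of 1. It lay inside that limit without WT replicate 2, WT replicate 3, *Dap1* replicate 1 or *Dap1* replicate 2, at -0.87 to -0.95. *OsCAD8B* (*Os09g0400000*), a cinnamyl alcohol dehydrogenase, the type of enzyme that makes the alcohols from which lignin is built, had 212, 159 and 197 counts in WT against 85, 71 and 103 in *Dap1*. It was the most highly expressed of the 10 genes, at 7.80 ± 0.238 FPKM (SD, n = 3) in WT but 3.49 ± 0.597 in *Dap1* (SD, n = 3), a log2 fold change of -1.16 (standard error 0.14). In the *Dap1* libraries it was still above *Os01g0820000*, by 1.14 to 1.64 times in FPKM.

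In the peroxidase group *prx30* (*Os02g0240100*) had 3, 7 and 3 counts in WT against 27, 34 and 19 in *Dap1*, a log2 fold change of 2.55 (standard error 0.46). It had the largest fold of the 5 and was near the count limit in WT. Its log2 fold change was 3.16 without WT replicate 2 and 2.27 without WT replicate 1. The other genes that were higher were *prx19* (*Os01g0787000*), with 21, 9 and 20 counts in WT against 54, 62 and 67 in *Dap1*, and *PRX39* (*Os03g0234900*), with 10, 13 and 22 and then 47, 31 and 42 counts. Their log2 fold changes were 1.84 (standard error 0.27) and 1.38 (standard error 0.32). With DESeq2's size factors both were inside the limit of 1, at 0.99 and 0.53, and with TMM factors *PRX39* was, at 0.92. *Os01g0172600*, the most highly expressed of the 5 in WT, had 72, 89 and 86 counts there and 25, 38 and 36 in *Dap1*, a log2 fold change of -1.36 (standard error 0.23). The fifth gene, *prx4* (*Os01g0270300*), had 53, 46 and 48 counts in WT against 21, 13 and 20 in *Dap1*, a log2 fold change of -1.47 (standard error 0.27).

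Taken over the 5 peroxidase genes, the sum of FPKM was 7.46, 10.5 and 9.46 in WT against 7.87, 7.65 and 7.63 in *Dap1*. This total overlapped between the groups, while its make-up did not. *Os01g0172600* made up 63.3 ± 3.87% of it (SD, n = 3) in WT but 29.1 ± 5.22% in *Dap1* (SD, n = 3). Its share thus lay at 60.2 to 67.6% in WT and at 23.3 to 33.3% in *Dap1*. The sum of *prx19*, *prx30* and *PRX39* was 1.13 to 1.74 FPKM in WT and 4.54 to 5.19 in *Dap1*, and that of *Os01g0172600* and *prx4* was 6.33 to 9.19 and 2.68 to 3.09 FPKM. The choice of members on this comparison fixes that the parts differ, and the overlap of the totals is given as a value only. Peroxidases form a large gene family, so reads may be split among similar members, and these values are uncertain to that extent. Genes of the family that were not called are not listed, so the total and the shares cover the 5 genes only.

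The last 2 genes on the map were lower. *Os9bglu30*, a member of the beta-glucosidase family, enzymes that release a sugar from glucosides such as those of monolignols, had the counts given above for the edge of the limit. On the log2 scale it changed by -2.43 (standard error 0.60), the largest fall among the members. This moved to -3.71 without *Dap1* replicate 3, which held most of the counts of its group, and to -2.04 without *Dap1* replicate 2. *Os06g0548200*, described as a protein with an FAD-linked oxidase domain, had 40, 57 and 34 counts in WT against 20, 18 and 20 in *Dap1*. The change of -1.22 (standard error 0.30) on the log2 scale was -0.87 without WT replicate 2, the highest WT library.

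**Figure D2:**
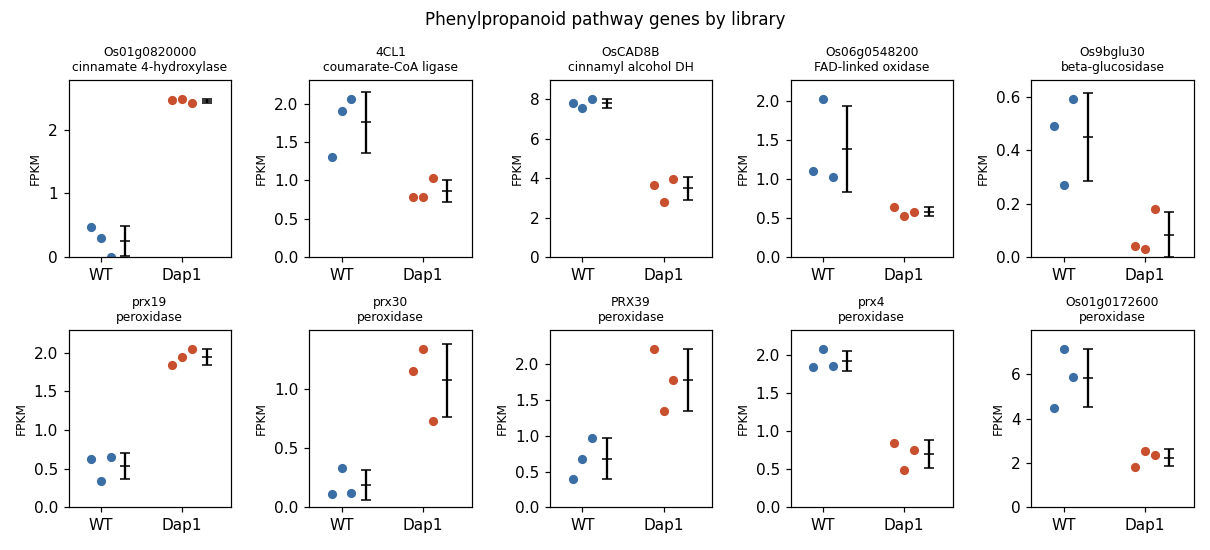
FPKM of the 10 phenylpropanoid genes in each library (points) with the mean and SD of each group (bars, n = 3). Each panel starts at 0 on its own scale. The *Dap1* points lie above WT for *Os01g0820000*, *prx19*, *prx30* and *PRX39*, and below it for the other 6 genes.

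On the flavonoid map, apart from *Os01g0820000*, both members were higher in *Dap1*. *Os04g0630900* and *Os04g0630100* carry nearby identifiers on chromosome 4 and the same KEGG orthology number, that of anthocyanidin reductase, an enzyme that makes flavan-3-ols, the units of condensed tannins. *Os04g0630900* had 8, 5 and 5 counts in WT against 24, 20 and 26 in *Dap1*, a log2 fold change of 1.91 (standard error 0.41). For *Os04g0630100* the counts were 11, 1 and 2 in WT against 14, 17 and 14 in *Dap1*, and the highest WT library came close to the lowest *Dap1* libraries. From a log2 fold change of 1.65 (standard error 0.55) it went to 3.11 without WT replicate 1 and to 1.26 without WT replicate 2, and with DESeq2's size factors it was at 0.80, inside the limit. Both genes were below 1 FPKM on average in each group. A glycosyltransferase gene on the flavone and flavonol map, *Os01g0176200*, was lower, with 41, 50 and 31 counts in WT against 22, 15 and 17 in *Dap1*. The fitted change of -1.21 (standard error 0.31, log2) became -0.93 without WT replicate 2. Words for ammonia-lyase, chalcone, flavanone, dihydroflavonol and leucoanthocyanidin enzymes, the entry to the phenylpropanoids and the core of flavonoid synthesis, matched 0 of the 925 listed genes. Whether such genes were measured and not called is not known from this table.

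*OsTPS10* was the most highly expressed member in WT. Terpene synthases fold prenyl diphosphates into the carbon skeletons of terpenes. Its counts were 8434, 6523 and 7311 in WT against 2909, 3074 and 3148 in *Dap1*. In FPKM this was 239.4 ± 6.20 (SD, n = 3) in WT but 96.2 ± 1.45 in *Dap1* (SD, n = 3), a log2 fold change of -1.32 (standard error 0.028). By mean FPKM over all libraries it ranked 23 among the 925 listed genes. *OsKS6* (*Os02g0571800*), a terpene synthase on the diterpenoid map, was lower as well, with 231, 151 and 231 counts in WT against 101, 84 and 78 in *Dap1*. Its log2 fold change was -1.24 (standard error 0.15), and its FPKM of 4.44 ± 0.590 (SD, n = 3) in WT but 1.90 ± 0.367 in *Dap1* (SD, n = 3) was far below that of *OsTPS10*. The FPKM of *OsTPS10* was 46.7 to 63.6 times that of *OsKS6* in WT and 42.4 to 59.3 times in *Dap1*, ranges that overlapped. Outside the members, the same word list held *OsTPS24* and the cyclase gene *OsOSC10* (*Os11g0286800*). All 4 genes of the list were lower, beside 393 of all 925 listed genes, and nothing is read from so few genes. *OsOSC10* had 19, 22 and 22 counts in WT against 8, 4 and 13 in *Dap1*. It and *OsTPS24* were below 1 FPKM on average in both groups.

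Other terpenoid genes differed in direction. *Os01g0642000* and *Os01g0642100*, with neighbouring identifiers on chromosome 1 and the KEGG number of a prenylcysteine methylesterase, an enzyme that acts on proteins carrying a prenyl group, were both higher. *Os01g0642000* had 191, 164 and 176 counts in WT against 389, 497 and 500 in *Dap1*, a log2 fold change of 1.35 (standard error 0.094). *Os01g0642100* had 39, 32 and 27 counts in WT against 61, 71 and 71 in *Dap1*. A log2 fold change of 1.02 (standard error 0.22) fell inside the limit without WT replicate 3 (0.88) or *Dap1* replicate 2 (0.99). The FPKM of the first was 1.86 to 2.48 times that of the second in WT and 2.42 to 2.67 times in *Dap1*. Both calls ended under the other scalings, where *Os01g0642000* was at 0.90 (TMM) and 0.50 (DESeq2) and *Os01g0642100* at 0.56 and 0.16. Neighbouring genes of 1 family can share reads, so how the counts split between them is uncertain. *Os04g0531900*, a short-chain dehydrogenase gene on the monoterpenoid map, was lower, with 112, 73 and 127 counts in WT against 50, 26 and 39 in *Dap1* (log2 fold change -1.46, standard error 0.23). *Os12g0178000*, an aldehyde dehydrogenase gene, reached this set through the map of limonene and pinene degradation, 1 of 14 maps it is on. Its counts were 87, 69 and 99 in WT against 30, 53 and 39 in *Dap1*. The log2 fold change of -1.09 (standard error 0.21) was inside the limit without WT replicate 3 (-0.98) or *Dap1* replicate 1 (-0.96).

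The 2 genes of ABA metabolism among the members differed in direction. Genes of ABA metabolism that were not called are not listed. *OsNCED1* (*Os02g0704000*), a 9-cis-epoxycarotenoid dioxygenase, the type of enzyme that makes the committed cut from carotenoids towards ABA, was lower in *Dap1*. It had 3082, 2388 and 2796 counts in WT against 775, 988 and 879 in *Dap1*, or 71.6 ± 0.156 FPKM (SD, n = 3) against 22.4 ± 2.0 (SD, n = 3). The log2 fold change between the groups was -1.68 (standard error 0.047). *OsABA8OX2* (*Os08g0472800*), an ABA 8'-hydroxylase, which starts the breakdown of ABA, was higher, with 349, 272 and 332 counts in WT against 758, 836 and 761 in *Dap1*. Its FPKM was 7.81 ± 0.202 (SD, n = 3) in WT but 18.9 ± 1.17 in *Dap1* (SD, n = 3), a log2 fold change of 1.28 (standard error 0.070). The ratio of *OsNCED1* to *OsABA8OX2* in FPKM was 9.34, 9.28 and 8.90 in WT against 1.08, 1.25 and 1.22 in *Dap1*. In this ratio within a library the scaling cancels. Both genes were chosen on this comparison, in opposite directions, which fixes that the ratio differs, so it is given as a value only. With DESeq2's size factors *OsABA8OX2* was at 0.42, inside the limit of 1, and with TMM factors at 0.82.

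Of the other hormone genes, the 2 on the zeatin map were higher. Zeatin is a cytokinin, a class of hormones of cell division. *Gn1a* (*Os01g0197700*), a cytokinin oxidase that breaks cytokinins down and is known for its effect on grain number, had 4, 6 and 3 counts in WT against 38, 37 and 34 in *Dap1*. Its FPKM was 0.110 ± 0.0529 (SD, n = 3) in WT but 0.897 ± 0.10 in *Dap1* (SD, n = 3), and the log2 fold change of 3.0 (standard error 0.39) rests on few WT counts. *OsUGT98B3* (*Os10g0178500*), a glycosyltransferase, had 130, 74 and 107 counts in WT against 229, 231 and 242 in *Dap1*, a log2 fold change of 1.15 (standard error 0.13). *GA20OX1* (*Os03g0856700*), a gibberellin 20-oxidase of the late steps of gibberellin synthesis on the diterpenoid map, had 23, 8 and 19 counts in WT against 56, 49 and 61 in *Dap1*, a log2 fold change of 1.71 (standard error 0.28). *OsCPD1* (*Os11g0143200*), a cytochrome P450 gene of brassinosteroid synthesis, had 69, 68 and 50 counts in WT against 111, 116 and 186 in *Dap1*. The difference of 1.10 (standard error 0.20) on the log2 scale was 0.86 without *Dap1* replicate 3, which was well above the other *Dap1* libraries, and 0.95 without WT replicate 3. Calls of these genes also ended with the scaling. *OsUGT98B3* was at 0.70 with TMM factors and at 0.30 with DESeq2's size factors, *OsCPD1* at 0.65 and 0.25, and *GA20OX1* with the latter at 0.86.

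**Figure D3:**
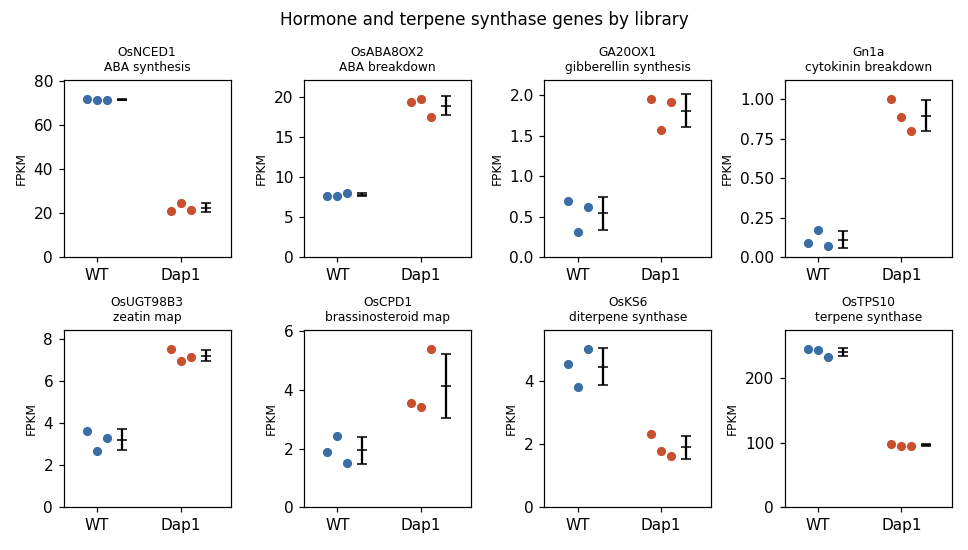
FPKM of 6 genes on hormone maps and 2 terpene synthase genes in each library (points) with the mean and SD of each group (bars, n = 3), on axes that start at 0. *OsNCED1*, *OsKS6* and *OsTPS10* lie lower in *Dap1*, and *OsABA8OX2*, *GA20OX1*, *Gn1a*, *OsUGT98B3* and *OsCPD1* lie higher.

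Several members are enzymes of general metabolism that KEGG also draws on a map of secondary products. *Os09g0294000*, a bifunctional aspartokinase and homoserine dehydrogenase of amino acid synthesis, had 5057, 3886 and 4679 counts in WT against 10717, 11290 and 11865 in *Dap1*. At 82.4 ± 0.453 FPKM (SD, n = 3) in WT but 199.8 ± 3.07 in *Dap1* (SD, n = 3) it was the most highly expressed member in the mutant, and its log2 fold change was 1.28 (standard error 0.025). *Os03g0850400*, an aspartokinase gene and like it on the monobactam map, was also higher, with 87, 68 and 71 counts in WT against 161, 231 and 208 in *Dap1* (log2 fold change 1.37, standard error 0.15). *Os03g0429800*, a xanthine dehydrogenase gene of purine breakdown that is placed on the caffeine map, had 1786, 1390 and 1695 counts in WT against 3391, 3554 and 3701 in *Dap1*. Its log2 fold change was 1.10 (standard error 0.034). All 3 lost the call under either other scaling. The log2 fold changes of *Os09g0294000*, *Os03g0850400* and *Os03g0429800* were 0.83, 0.92 and 0.64 with TMM factors, and 0.43, 0.52 and 0.25 with DESeq2's size factors.

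On the 4 maps left, of nitrogen-containing defence compounds and alkaloids, 3 genes were lower and 1 was higher. *Os03g0797300*, described as similar to benzoxazinless1, which in maize makes indole for benzoxazinoids, had 130, 114 and 138 counts in WT against 51, 43 and 54 in *Dap1* (log2 fold change -1.40, standard error 0.17). *Os04g0171800*, described as similar to cytochrome P450 79A1, in sorghum the first enzyme of cyanogenic glucoside synthesis, had 205, 154 and 208 counts in WT against 79, 63 and 67 in *Dap1* (log2 fold change -1.46, standard error 0.15). *Os11g0443700*, a short-chain dehydrogenase gene on the tropane alkaloid map, had 135, 62 and 67 counts in WT against 43, 42 and 43 in *Dap1*. WT replicate 1 carried much of its log2 fold change of -1.05 (standard error 0.23), which was -0.71 without that library. *Os01g0793300*, a gene with a di-copper centre domain and the KEGG number of polyphenol oxidase, had 41, 24 and 20 counts in WT against 64, 55 and 56 in *Dap1*. The log2 difference of 1.02 (standard error 0.25) was inside the limit without WT replicate 3 (0.81) or *Dap1* replicate 1 (0.90), and it was 0.56 with TMM factors and 0.17 with DESeq2's size factors.

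**Figure D4:**
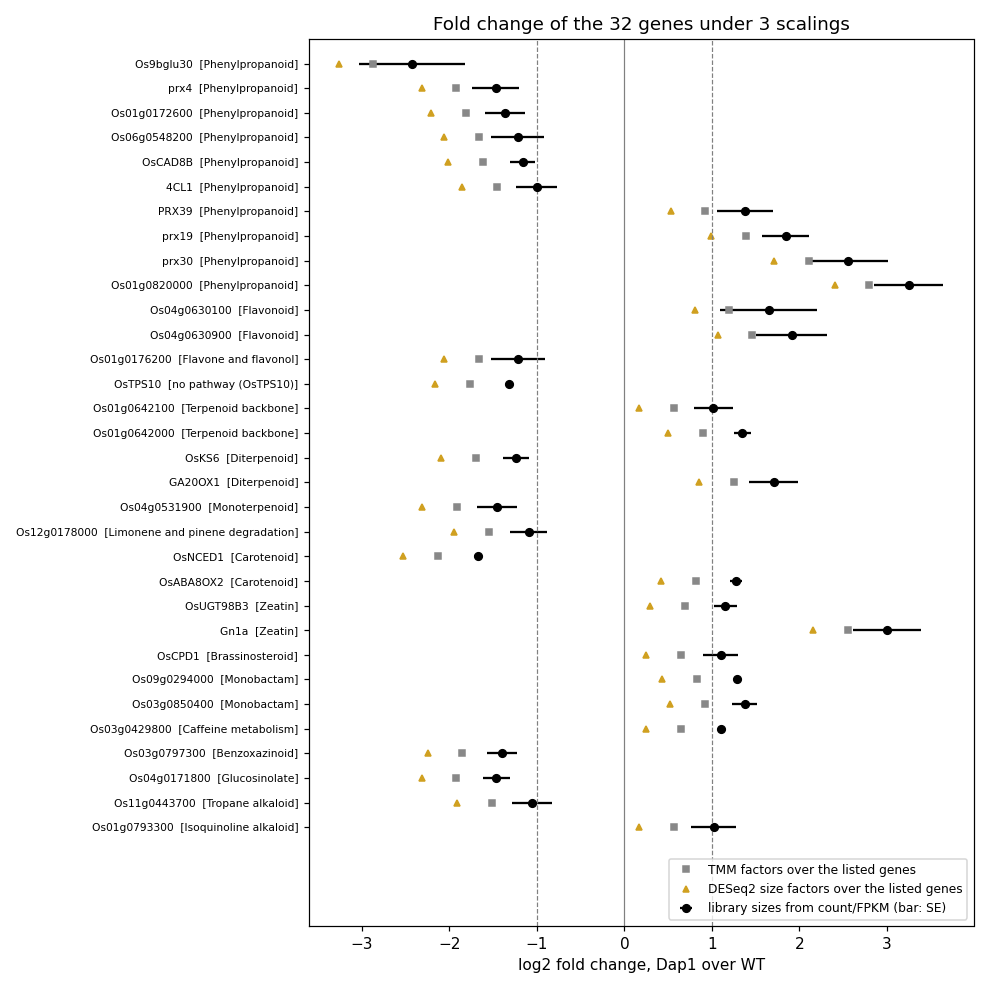
Log2 fold change (*Dap1* over WT) of the 32 genes with library sizes from the ratio of count to FPKM (black, bar the standard error), with TMM factors (grey squares) and with DESeq2's size factors (yellow triangles), both computed over the listed genes. Dashed lines mark 1 and -1. Both other scalings move every gene to the left, so that 15 genes stay below -1 and 7 or 4 stay above 1.

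Neither GO terms nor chromosomes were used by the rule. KEGG maps group enzymes by reaction, however, so GO terms for enzyme activities follow in part from the choice. By GO term, 22 of the 32 were in oxidation-reduction process, 13 higher and 9 lower, out of 78 listed genes, 49 higher and 29 lower. Heme binding held 9 members, 6 higher and 3 lower, out of 28 listed genes, 13 higher and 15 lower. The identifiers of the members lay on 10 chromosomes, with 9 of them on chromosome 1 and 6 on chromosome 3. Chromosomes were not counted over all listed genes, so nothing is read from this. Level and spread also played a part in the choice. The count limit removed low genes from the members only and the calls of the study rest on the spread, so these values are a description. The median over the members of the mean FPKM was 2.83, against 1.90 over all listed genes. Of the 32, 8 had a mean FPKM under 1. The median coefficient of variation of the scaled counts was 19.5% in WT and 13.4% in *Dap1* over the members, and 17.3% and 13.9% over all listed genes. Among the *Dap1* libraries, replicate 1 had the highest scaled count for 17 members and replicate 2 the lowest for 18, with median log2 ratios to the group mean of only 0.048 and -0.050.

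Related enzymes outside the members were counted from word lists. Of 18 listed genes described as cytochrome P450, a wording that leaves out *Os01g0820000*, 7 were higher and 11 lower, and the 3 members among them, *OsABA8OX2*, *OsCPD1* and *Os04g0171800*, included 2 that were higher. Among the 15 others, 5 were higher and 10 lower. Their log2 fold changes ran from -2.60 to 6.66, the latter for *Os10g0165300*, with 0, 0 and 0 counts in WT against 10, 19 and 9 in *Dap1*. For *Os02g0504000*, similar to CYP81L6, the counts were 109, 102 and 85 in WT against 25, 22 and 13 in *Dap1*. Of 6 listed UDP-glycosyltransferase genes 4 were higher and 2 lower, with members on either side, and *OscZOG1* (*Os04g0271700*) had 17, 16 and 25 counts in WT against 35, 48 and 64 in *Dap1*. The 5 listed class III peroxidase genes were all members. The only listed laccase gene, *Oslacc* (*Os01g0842400*), an oxidase that can also couple monolignols, had 10, 19 and 5 counts in WT against 32, 32 and 23 in *Dap1*, and its scaled counts overlapped between the groups. In the list of oxygenases that use 2-oxoglutarate, 3 of 4 genes were higher. *GA20OX1* was its only member here. The exception was *OsS3H* (*Os04g0581100*), with 8, 10 and 5 counts in WT against 0, 0 and 1 in *Dap1*.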

How the data were processed

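Leaf RNA of 3 *Dap1* and 3 WT samples was measured by RNA-seq. Per the paper's methods and the labels, reads were filtered with Fastp, rRNA reads were removed with Bowtie 2, and the rest were mapped to the Nipponbare genome with HISAT 2, assembled with Stringtie and quantified with RSEM. The authors deposited raw fragment counts and FPKM values for the genes they had called, 925 in all. Versions, genome build and strand setting are not given in the sources used here. The columns with the authors' group means, fold changes, p-values and FDR were not used. Since only called genes are listed, whole-library depth is unknown. Counting error limits the low genes: 2 members had a mean count under 10. Genes with near-identical copies can share reads.

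Library sizes came from the ratio of count to FPKM, as its median over the 258 genes with FPKM of at least 2 in every library. Counts were fitted with edgeR 4.0.16 in R 4.3.3 over the 925 genes, by group only and with no filter on low counts, and p-values were adjusted by the Benjamini-Hochberg method. The standard error is the size of the log2 fold change over the square root of F. Scaled counts are counts divided by relative library size. Alternatives were TMM and DESeq2 1.42.0 size factors, the Wald test of DESeq2, limma 3.58.1 with a pseudocount of 1 or 0.1 on log2 FPKM, a filter at a mean count of 10, a block for the replicate number, and leaving out each library. The edgeR and DESeq2 fits were tested on simulated data with known library sizes and most genes unchanged. That run cannot speak to the scaling or to a list of called genes. Counts of any 2 replicates differed beyond sampling noise (chi-square per degree of freedom 1.81 to 2.20). Figures used Python 3.11.15 and matplotlib 3.10.9.

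The members and lists were chosen with earlier results of these data known. By the naming rule every member is named, grouped by KEGG pathway, with *OsTPS10*, which has none, placed beside the terpene synthase *OsKS6* and *GA20OX1* described with the hormone genes. None of the member identifiers matched the RefSeq gene table (0 of 32), and no sequence or coordinate is given. Chromosomes are read from the identifiers.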

Additional observations from a re-analysis of the deposited data

How the results depend on the processing

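All 32 members kept their direction in every alternative run that fitted them. With TMM and DESeq2 size factors 7 and 4 members were called higher, against 17, and the median absolute log2 fold change was 1.53 and 1.88, against 1.36. Both kinds of factor take most genes as unchanged, which a list of called genes does not meet. With limma on log2(FPKM + 1), a scale that shrinks changes of low genes, 6 members were called higher and 5 lower, and the median was 0.89. With each library left out in turn, 14 to 17 members were called higher and 12 to 15 lower. The median then lay between 1.30 and 1.41. In these runs 32 members did not overlap, which was fixed in advance, since leaving out a library cannot make separate groups overlap. With limma on log2(FPKM + 0.1) 16 were called higher and 13 lower, and DESeq2's Wald test gave 17 and 15. The mean count filter left 30 members, 16 called higher and 14 lower. With deposited FPKM in place of scaled counts, 32 did not overlap. Replicate numbers matched between the groups in the labels, but same-numbered libraries did not deviate together over the 925 genes (correlations 0.0797, -0.0430 and 0.0528), and the replicate block gave 17 higher and 15 lower. All members come from a table of called genes, so counts that stay high show no stability.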
